A study of Mus musculus with 16 samples.

Results

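The liver of adult C57BL/6J mice was sequenced in 2 libraries of the 16 in the series, 1 after capture with probes against lncRNA loci and 1 after capture with probes against the splice junctions of annotated genes. Both were chosen by their tissue label and not by a measured value. They were set against 6 libraries of heart, kidney and a tissue labelled testis, 1 per tissue and capture, from mice of the same strain. The labels name no treatment or altered allele for any of these libraries. This comparison, and the gene lists and pairs below, were chosen with earlier results of these data known. The remaining 8 libraries (whole brain, cerebellum, cortex and olfactory bulb in each capture) served as a second reference. The RNA of each nonbrain organ came from pieces of 1 mouse, so the 2 captures show that mouse's liver through 2 probe sets and are not replicate animals. Liver and heart received ERCC spike-in mix 1, and kidney and the tissue labelled testis mix 2. Liver had 11 cycles of PCR before capture and the other 3 nonbrain tissues had 10. The nonbrain libraries were hybridized to the probes in pools of 4, apart from the brain libraries.

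The liver is made up mostly of hepatocytes, which secrete the bulk of plasma proteins, make bile acids from cholesterol, turn ammonia into urea, keep blood glucose within bounds and clear drugs and steroids. Hepatocyte genes are driven by a small group of transcription factors, among them HNF4A, the FOXA proteins and the C/EBP proteins. Between the hepatocytes lie Kupffer cells (resident macrophages), sinusoidal endothelial cells with an open wall, stellate cells that store vitamin A, and the cholangiocytes of the bile ducts.

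The value used throughout is the authors' normalized estimate of fragments, summed over the transcripts of a gene model. The difference of a gene model is taken within a capture. It is log2(value + 1) in liver minus the mean of log2(value + 1) in heart, kidney and the tissue labelled testis. The figure after ± is the SD over these 3 tissues. It is a spread between different organs and not an error of the liver difference. Because there was 1 liver library per capture, no test could be made and no p-value is given. A gene model is called higher in liver where the difference was at least 2 and liver lay above all 3 tissues in both captures, and lower where the reverse held. Values of different genes are not compared, since probe number and gene length differ between them. In whole tissue, more cells of a type and more RNA per cell cannot be told apart.

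A level filter, an average of 10 or more across the 8 nonbrain libraries, left 26300 gene models. Of these, 1157 (4.4%) were higher in liver in both captures and 524 (1.99%) were lower. The median difference over all of them was -0.20 in the lncRNA capture and 0 in the splice junction capture. The captures differed in how many they called. In the splice junction capture alone 1391 gene models (5.29%) were higher and 1277 (4.86%) lower, and in the lncRNA capture alone 2177 (8.28%) were higher and 3340 (12.7%) lower. Of those higher in the splice junction capture, 83.2% were also higher in the lncRNA capture, and for lower gene models the share was 41.0%. The split between higher and lower depended on the scaling: when each library was scaled to its own total of fragments outside the spike-ins, 775 were higher and 1085 lower, and the median difference moved to -0.49 and -0.31. Without kidney among the comparison tissues 1391 were higher and 870 lower. The annotation called 13815 of the gene models protein-coding, and 912 (6.6%) of those were higher in liver and 423 (3.06%) lower.

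**Figure D1:**
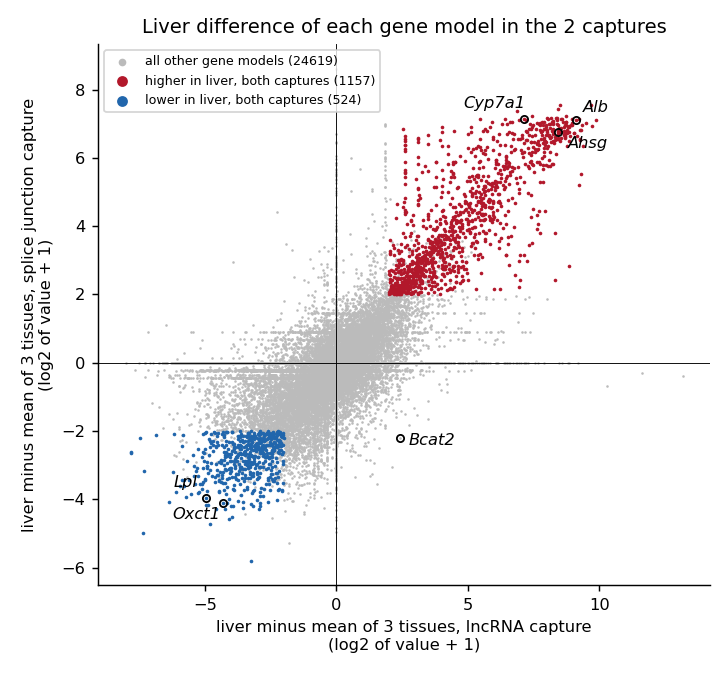
Difference of each of 26300 gene models (log2 of value + 1, liver minus the mean of heart, kidney and the tissue labelled testis) in the lncRNA capture on the x axis and the splice junction capture on the y axis. The 1157 gene models higher in both captures (red) reach 9.89 on the x axis but 7.55 on the y axis, the 524 lower ones (blue) lie at the lower left, and Bcat2 lies at the lower right, above 2 on the x axis and below -2 on the y axis.

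The liver libraries held 20176586 fragments in the lncRNA capture and 43889289 in the splice junction capture, of which ERCC spike-ins took 45.6% and 15.0%. The other nonbrain libraries held 8930243 to 30864557. A single fragment was worth 2.57 in the liver lncRNA capture and 0.870 in the liver splice junction capture, and as much as 4.77 in heart, which sets the lowest level that could be seen. Of the 1157 gene models called higher, 47 had 3 or fewer fragments in the liver lncRNA library, 29 of them protein-coding. Myh6 and Ttn were listed at 0 in the heart splice junction library and Lrp2 in that of kidney while the other 3 nonbrain libraries of that capture were at 1000 or more, so these 3 gene models were left out. Some ERCC spike-ins were listed at 0 in liver while each other nonbrain library of that capture held them. The lowest such value was 230175 in the lncRNA capture and 63702 in the splice junction capture. The liver fragment totals and spike-in shares above do not count them. Of 8 germ cell genes, 7 were under the level filter, and the keratinocyte genes Krt5, Krt14, Trp63, Dsg3 and Dsc3 were highest in the libraries labelled testis, which therefore go against their label. Without them 1212 gene models were higher in liver and 770 lower.

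Genes far higher in liver had a trace in the other libraries of their pool. Of 184 gene models with a liver value of at least 5000 and more than 20 times that of each comparison tissue in the splice junction capture, a choice that keeps the shares under 5%, the median value in heart was 1.32% of the liver value, in kidney 0.957% and in the libraries labelled testis 0.656%, and none of the 184 was under 0.05% in any of the 3. In the 4 brain libraries, which were hybridized in another pool, the medians were 0.00573% to 0.0114%, and 124 to 134 of the 184 were under 0.05%. In the lncRNA capture the trace varied more: over 55 such gene models the median was 0.454% in heart, 0.520% in kidney and 0.261% in the library labelled testis, kidney ran from 0.256% at the 25th percentile to 2.36% at the 75th, and the 75th percentiles of the brain libraries were 0.217% to 0.378%. The trace ran the other way too. In the splice junction capture gene models far higher in heart had a median of 0.828% of the heart value in liver. Those of kidney had 2.16% and those of the tissue labelled testis 3.70%. In the lncRNA capture the medians were 0.276%, 0.757% and 1.45%. The differences of the 1157 gene models had a 90th percentile of 6.69 and a highest value of 7.55 in the splice junction capture, against 7.94 and 9.89 in the lncRNA capture. For genes whose comparison values lie at these shares, the part of the trace in the difference was not tested.

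**Figure D2:**
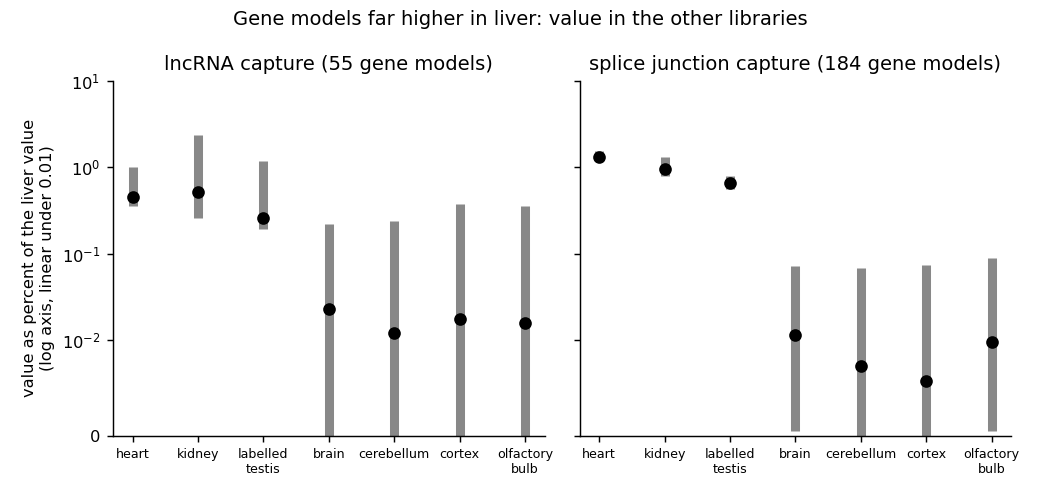
Value in each other library as a percent of the liver value (y axis, log scale that turns linear under 0.01) for 55 gene models in the lncRNA capture (left) and 184 in the splice junction capture (right) that were far higher in liver. Points are medians and bars run from the 25th to the 75th percentile. The medians of heart, kidney and the libraries labelled testis lie above those of the 4 brain libraries in both captures.

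The 5 genes that define the tissue were all higher in liver in both captures, so the data bear out the tissue label. Alb, at chr5:90460889-90476603 on GRCm38, encodes serum albumin. Its value in the splice junction capture was 13714 in liver, 143 in heart, 87.6 in kidney and 74.6 in the library labelled testis, a difference of 7.12 ± 0.48, and in the lncRNA capture it was 32443 in liver against 57.2, 79.4 and 41.0, a difference of 9.12 ± 0.47. It was listed at 0 in all 8 brain libraries. Ahsg (chr16:22891971-22899438) encodes fetuin-A, a plasma protein that binds calcium phosphate. It stood at 101174 in liver against 1455, 876 and 628 in the splice junction capture and at 815659 against 3892, 2048 and 1595 in the lncRNA capture, and was listed at 0 in the 8 brain libraries as well. Liver stood apart from every comparison library for both genes.

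Apob (chr12:7977648-8016835) encodes the backbone protein of the lipoproteins that carry fat out of the liver and gut. Its splice junction value was 690630 in liver, 8851 in heart, 20784 in kidney and 4015 in the library labelled testis, a difference of 6.26 ± 1.19. Kidney, at 20784, stood above the trace level seen for other liver genes, and kidney was also the next tissue in the lncRNA capture, at 487 against 17895 in liver. F9 (chrX:59999446-60033396), coagulation factor IX, was at 21061 in liver against 233, 133 and 106, a difference of 7.14 ± 0.58. In the lncRNA capture it rested on 124 liver fragments (95% exact Poisson interval 103 to 148, counting error only) and on 1, 1 and 2 fragments in the other tissues. Cyp7a1 (chr4:6263077-6275633), the rate-limiting enzyme of bile acid synthesis, was at 9696 against 101, 56.8 and 53.3 in the splice junction capture. In the lncRNA capture it had 55 fragments in liver (41.4 to 71.6) and 0 in each of the other 3 tissues, which makes liver at least 18.6-fold higher against a floor of 3 fragments per library.

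**Figure D3:**
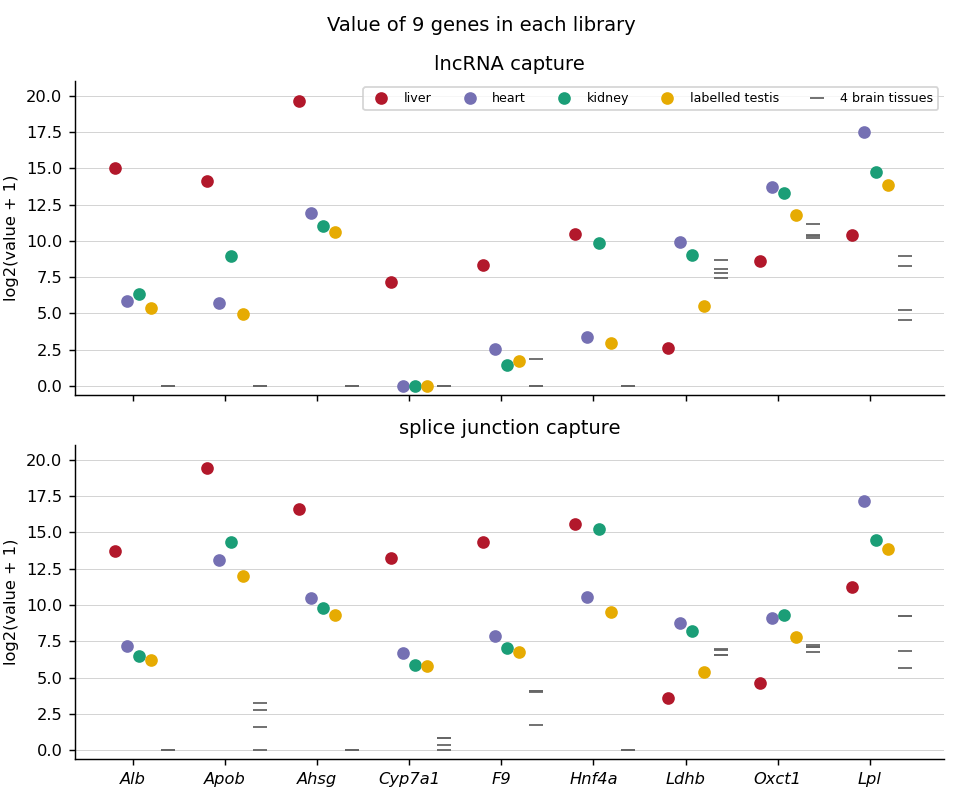
Log2(value + 1) of 9 genes in every library of the lncRNA capture (top) and the splice junction capture (bottom), with 1 point for liver, heart, kidney and the tissue labelled testis and a dash for each of the 4 brain tissues. Liver lies above all others for the first 6 genes, by little over kidney for Hnf4a, and below heart, kidney and the tissue labelled testis for Ldhb, Oxct1 and Lpl.

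The promoters of these genes are shown because C/EBP proteins are among the factors known to act on hepatocyte genes. The 150 bases before the RefSeq start site (GRCm38.p6, plus strand) are printed for the 4 of the 5 genes with a promoter in the table, with the match to TTGCNNAA or its reverse complement TTNNGCAA in capitals. They lie at chr5:90460720-90460869 (Alb), chr12:7977527-7977676 (Apob), chr16:22891865-22892014 (Ahsg) and chrX:59999314-59999463 (F9).
Alb: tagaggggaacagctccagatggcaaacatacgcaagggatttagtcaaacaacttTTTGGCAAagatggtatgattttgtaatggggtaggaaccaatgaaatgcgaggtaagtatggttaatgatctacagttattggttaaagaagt
Apob: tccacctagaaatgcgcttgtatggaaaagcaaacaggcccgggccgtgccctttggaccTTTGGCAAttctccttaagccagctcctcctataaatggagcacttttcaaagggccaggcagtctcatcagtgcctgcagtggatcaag
Ahsg: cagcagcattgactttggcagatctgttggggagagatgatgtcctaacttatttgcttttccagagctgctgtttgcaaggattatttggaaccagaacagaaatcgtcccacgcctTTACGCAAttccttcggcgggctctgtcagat
F9: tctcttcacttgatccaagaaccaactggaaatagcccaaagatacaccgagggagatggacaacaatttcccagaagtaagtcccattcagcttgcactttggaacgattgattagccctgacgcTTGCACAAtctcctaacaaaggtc
Each of the 4 windows held 1 match, which began 94 bases before the start in Alb, 90 in Apob, 32 in Ahsg and 24 in F9.

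The same letters were looked for in the 300-base promoters (250 bases before and 50 after the start) of the protein-coding genes higher in liver, of which 689 of 902 symbols had a promoter in RefSeq. A match to TTGCNNAA on either strand was found in 15.6% of their 871 promoters, in 6.28% of the 414 promoters of genes lower in liver, in 9.0% of those of protein-coding genes tested and in 10.8% of the 32851 promoters in the table. TGTTTAC (a core bound by FOXA proteins) was in 4.94%, 1.69%, 2.84% and 3.65% of the same sets, and CAAAGTCCA (HNF4A) in 1.49%, 0%, 0.469% and 0.475%. None of the 3 motifs holds another within it, but matches can overlap in a promoter, genes with several start sites count more than once, and a match is a run of letters, not a bound site.

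Clotting factors were almost all higher in liver. Of 21 coagulation genes 20 were called, against 4.4% of all gene models, and their median difference in the splice junction capture was 6.58. The counts of the lists that follow stand beside the same 4.4%, or 6.6% of protein-coding gene models. F2, prothrombin, stood at 137732 in liver against 2108, 1435 and 990, comparison values near the shares of the pool trace. The fibrinogen chains Fga, Fgb and Fgg had splice junction differences of 6.85, 6.90 and 6.96, and Plg, the precursor of the clot-dissolving plasmin, 6.83. The inhibitors antithrombin (Serpinc1) and heparin cofactor II (Serpind1) had 6.63 and 6.92. Liver exceeded each comparison library for every gene of this group named so far. Some members were shared with kidney: F13b, the factor XIII carrier subunit, was at 31434 in liver and 16038 in kidney against 553 in heart, and Serpinf2, which inhibits plasmin, at 24729 in liver and 10439 in kidney. Pros1, protein S, a cofactor of activated protein C, was not called, with 5616 in liver against 2701, 1418 and 2168.

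All 18 gene models of the complement list were higher in liver, with a median difference of 6.24 in the splice junction capture. The list left out C1qa, C1qb and C1qc, which were counted with the macrophage genes. They were not called, with splice junction differences of 0.44, 0.85 and 0.78. C3, on which all complement pathways converge, was at 538268 in liver, 28979 in heart, 6255 in kidney and 15216 in the library labelled testis. The pore-forming chain C9 was at 87263 against 964, 620 and 634, and Hc, which encodes C5, at 208934 against 2283, 1445 and 1682. The lectins Mbl1 and Mbl2, which bind microbial sugars, had differences of 6.51 and 6.85. C1s1, a protease of the classical pathway in a gene model shared with C1s2, had the smaller difference of 3.71, at 59376 in liver against 7308 in heart. C2 and Cfb lie in 1 gene model, so their fragments cannot be told apart.

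Apolipoproteins and the enzymes that load and remodel lipoproteins were higher in 19 of 19 gene models (median 6.38 in the splice junction capture). Apoa1, the main protein of high-density lipoprotein, was at 43404 in liver against 698, 470 and 343. Mttp, which loads fat onto ApoB, was at 67337 against 2358, 3389 and 993. Lcat, the plasma enzyme that esterifies cholesterol, had a difference of 6.63. Smaller differences were seen for members that are also used elsewhere in the body. Apoe was at 5037 in liver and 1041 in the library labelled testis (4.07), and Scarb1, the high-density lipoprotein receptor, at 7388 and 2428 (2.64).

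Bile acid genes followed in 18 of 23 gene models, with a median of 5.92 in the splice junction capture. Besides Cyp7a1, the synthesis enzyme Cyp8b1, which sets the amount of cholic acid, was at 159 in liver and at 0, 0.668 and 0 in the other tissues, and in the lncRNA capture liver was at least 40.3-fold higher. The uptake carriers Slc10a1 and Slco1b2 of the blood side had differences of 6.65 and 7.03, and the export pumps Abcb11 (bile salts), Abcg5 and Abcg8 (sterols) 6.96, 6.84 and 6.67. Liver stood alone for these carriers. Kidney did not separate from liver for several others. Nr1h4, the bile acid receptor FXR, was at 12225 in liver and 17670 in kidney, Slco1a1 at 85582 and 165123 in a gene model it shares with Slco1a6, and Amacr, which acts on the side chain, at 7890 and 13647. Fgfr4, the receptor for the gut hormone FGF15, passed in the splice junction capture alone (1419 in liver, 1163 in kidney), while its partner Klb was higher in both (3856 in liver, 48.1, 31.4 and 30.4 elsewhere). Nr0b2 was under the level filter.

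Of 8 urea cycle genes 7 were higher. Cps1, which makes carbamoyl phosphate from ammonia, was at 644479 in liver against 8264, 5227 and 3747, and Otc, the next enzyme, at 80334 against 956, 622 and 461. Nags, which makes the activator of Cps1, was at 1197 against 17.6, 12.7 and 11.7. The first 2 steps therefore separated liver from kidney. The next step did not to the same degree, since Ass1, argininosuccinate synthase, was at 33555 in liver and 30602 in kidney, so that its difference of 3.39 ± 2.82 came from heart (1096) and the library labelled testis (971). Asl was at 41363 in liver and 16244 in kidney. Arg1, the liver arginase, was at 43382 in liver, 582 in heart, 378 in kidney and 2557 in the library labelled testis. Slc25a13, the aspartate carrier citrin, was called in the lncRNA capture alone, with splice junction values of 28026 in liver and 15043 in heart.

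Enzymes of amino acid breakdown were higher in 26 of 30 gene models (median 4.72 in the splice junction capture). They fell into those that separated liver from all 3 tissues and those shared with kidney. Tdo2, which opens the tryptophan ring, was at 162391 in liver against 1758, 1102 and 967, Tat, tyrosine aminotransferase, at 69386 against 930, 608 and 432, and Hal, histidine ammonia-lyase, at 26539 against 356, 247 and 177. Gldc, of the glycine cleavage system, was at 16371 in liver and 15613 in kidney, against 545 in heart and 242 in the library labelled testis. Cbs, of the transsulfuration pathway, was at 30719 in liver and 16142 in kidney. Gstz1, Afmid and Oat passed in the splice junction capture alone, and Tdh was under the level filter.

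Of 16 genes of glucose, fructose and glycogen metabolism 10 were higher (median 3.83 in the splice junction capture). Gckr, a regulatory protein of glucose use, was at 18587 in liver, 236 in heart, 160 in kidney and 124 in the library labelled testis. Gys2, liver glycogen synthase, was at 92236 in liver and 5673 in kidney, and Pygl, liver glycogen phosphorylase, at 49764 and 1927. Genes that make glucose, which kidney also does, did not separate the pair. G6pc, the last step of glucose release, was at 10848 in liver and 11080 in kidney, and Pck1, the committing step, at 91076 and 103127. Fbp1 was called at 62532 and 45387. Khk and Slc37a4 passed in the splice junction capture alone, G6pc, Pck1 and Pfkfb1 in the lncRNA capture alone, and Ppp1r3c in neither.

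Liver carries its own forms of many enzymes and carriers, and these were compared with the forms used elsewhere. Over 16 pairs of a liver form and another form, the difference of the liver form minus that of the other form was above 0 in all 16 in both captures. Of 14 liver forms 12 were higher, and of 16 other forms 7 were lower and none higher. Hk1, the hexokinase of most tissues, stood at 11.3 in liver against 119, 70.2 and 92.8. The difference of Gys2 was above that of Gys1 by 9.20 in the splice junction capture, with Gys1, muscle glycogen synthase, at 251 in liver against 7035, 1515 and 1683. The difference of Pklr was above that of Pkm by 8.35, with Pkm, pyruvate kinase of muscle and other tissues, at 40.9 in liver against 675, 112 and 326. Slc2a4, the insulin-regulated glucose carrier of muscle and fat, was at 172 in liver against 14066 in heart, and listed at 0 in the liver lncRNA capture. The narrowest pair was Pfkl and Pfkm, where neither form was higher in liver and their differences were 1.75 apart in the lncRNA capture. Without the tissue labelled testis 11 of the other forms were lower. Arg2 and Mat2a did not differ by the threshold, at 0.18 and 0.47.

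**Figure D4:**
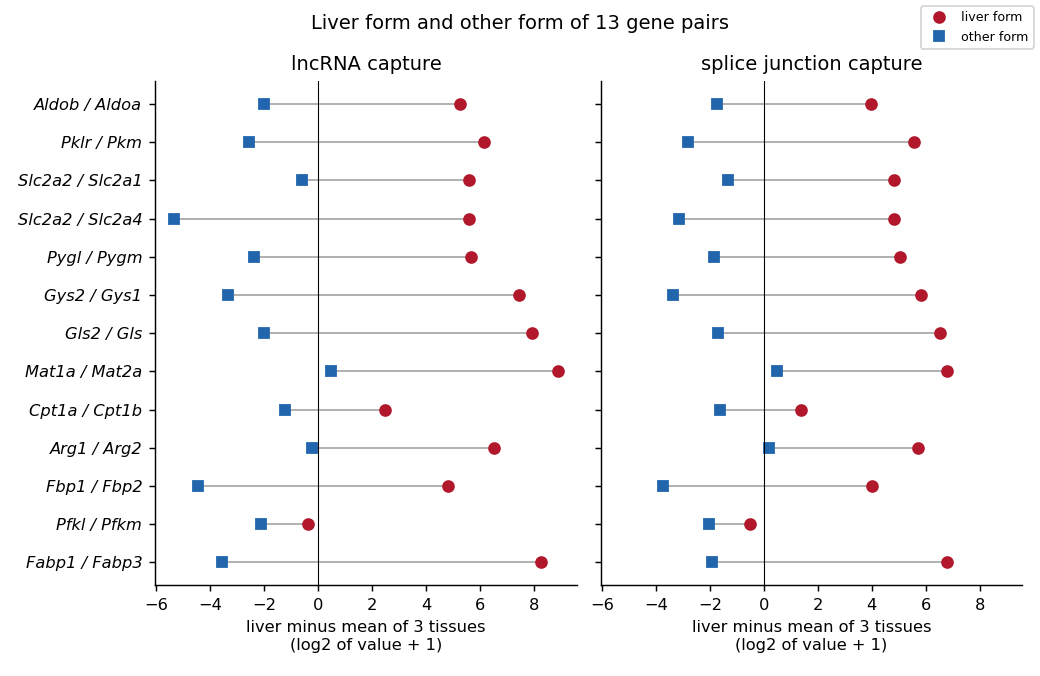
Difference of the liver form (red circles) and the other form (blue squares) of 13 of the 16 gene pairs, in log2(value + 1) of liver minus the mean of heart, kidney and the tissue labelled testis, with the lncRNA capture at left and the splice junction capture at right. The red circle lies to the right of the blue square in all 13 pairs in both captures, least for Pfkl and Pfkm.

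Liver exports ketone bodies and does not burn them. Oxct1, the transferase without which a cell cannot burn ketone bodies, was at 23.5 in liver against 541 in heart, 620 in kidney and 216 in the library labelled testis in the splice junction capture and at 391 against 13199, 9850 and 3487 in the lncRNA capture. Its difference was -4.09 ± 0.82 and -4.29 ± 1.01, among the 15 lowest of protein-coding gene models. The 4 brain tissues had 106 to 151 of it in the splice junction capture, also above liver.

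Of 29 genes of fatty acid, ketone and sterol metabolism 11 were higher (median 1.67 in the splice junction capture). Fabp1, the liver fatty acid binding protein, was at 161735 against 2085, 1451 and 1026, and the fatty acid hydroxylase Cyp4a14 at 67545 against 800, 938 and 398. Elovl2, which lengthens polyunsaturated fatty acids, had a difference of 6.17, and Thrsp, a lipogenic factor, 4.95. Lipogenic and sterol genes were shared with the tissue labelled testis. Fasn, fatty acid synthase, was at 865 in liver and 843 there, Scd1, a desaturase, at 46814 and 76742, and Idi1, of sterol synthesis, at 2177 and 44518. None of the 6 sterol synthesis genes Hmgcs1, Sqle, Cyp51, Lss, Dhcr7 and Idi1 was called. The list had no lower member, and 1 without heart or without kidney.

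Drug and steroid metabolism was higher in 20 of 22 gene models (median 5.76 in the splice junction capture). Cyp3a11, the main mouse CYP3A enzyme of adult liver, was at 386966 in liver against 4384, 2823 and 2026, and Cyp1a2, which oxidizes caffeine, at 45326 against 552, 402 and 284. Cyp2e1, the ethanol-induced enzyme, was at 96865 in liver and 20868 in kidney. Ugt2b5, a glucuronosyltransferase, had a difference of 6.98, and Adh4, an alcohol dehydrogenase, likewise 6.98. Por, the reductase that feeds electrons to these enzymes, was called at the small difference of 2.25, with 7944 in liver and 3959 in kidney. Fmo1 and Ugt3a2 were higher in kidney, at 19646 and 89047 against 10088 and 35304 in liver. The Cyp2c, Cyp2d, Ugt2b and Mup families have near-identical copies, so how fragments were split among their members is uncertain.

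Of 27 transcription factors 14 were higher (median 3.04 in the splice junction capture). Hnf4a, the central regulator of hepatocyte genes, was at 47980 in liver and 38320 in kidney, against 1489 in heart and 733 in the library labelled testis. The factors that separated liver from kidney were others. Foxa3 was at 1455 in liver against 27.3, 18.7 and 14.9, Foxa1 at 297 against 8.02, 2.01 and 1.60, and Onecut1 (HNF6) at 157 against 1.60, 0 and 1.60. The receptor Nr1i3 (CAR), which senses foreign compounds, was at 8304 against 111, 83.6 and 47.5, and Creb3l3, a membrane-bound factor active in fasting, at 20107 against 274, 199 and 173. Gata4 and Gata6 were highest in heart (1817 and 2570). Ppara, which drives fatty acid oxidation, was not called, at 9949 in liver and 5291 in kidney.

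**Figure D5:**
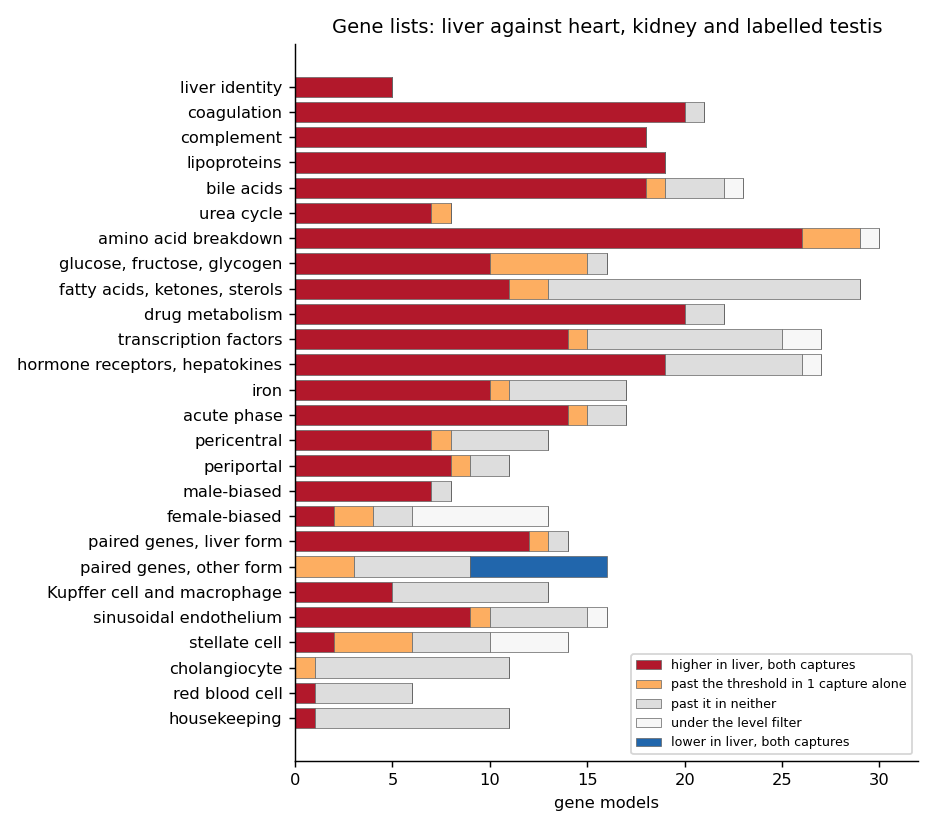
Number of gene models (x axis) of 26 lists that were higher in liver in both captures (red), lower in both (blue), past the threshold in 1 capture alone (orange), past it in neither (grey) or under the level filter (white). Red fills the whole bar for liver identity, complement and lipoproteins, and is absent for cholangiocytes and for the other forms of paired genes, of which 7 of 16 are blue.

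Hormone receptors and proteins that liver secretes as signals were higher in 19 of 27 gene models (median 4.61 in the splice junction capture). Igf1, the growth factor made in response to growth hormone, was at 9721 in liver against 346, 134 and 443, and its binding partner Igfals at 223 against 44.9, 52.8 and 18.1. The growth hormone receptor itself, Ghr, was not called, at 21146 in liver and 19543 in kidney. Gcgr, the glucagon receptor, was at 9293 in liver and 828 in kidney, and Egfr at 64957 against 1726, 5164 and 5380. Insr, the insulin receptor, had a difference of 0.78. Agt, the precursor of angiotensin, was at 31246 in liver and 2253 in kidney, and Igfbp1 at 10547 against 136, 160 and 72.0. Fgf21, a hormone of fasting, was under the level filter, with 40.0 in the liver splice junction library and 2.01 or less in the other 3.

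Iron genes were higher in 10 of 17 gene models. Hamp, hepcidin, the hormone that closes iron export, was at 2152 in liver against 25.7, 15.4 and 7.46 in the splice junction capture, a difference of 7.12. Tfr2 and Tmprss6, which act upstream of it, had 6.46 and 6.57, and the haem and haemoglobin scavengers Hpx and Hp had 6.72 and 6.24. Trf, transferrin, was at 310863 against 6219, 3890 and 5342. Hfe2, hemojuvelin, was higher in heart, at 5563, than in liver, at 639. Bmp6, which induces hepcidin, was at 286 in liver and 1366 in kidney and was not called. Of 17 acute phase genes 14 were higher, among them Saa1 (3474 in liver against 54.5, 26.1 and 139) and Orm1 (51786 against 651, 421 and 1082). The count was 9 where a mean of at least 10 was asked of each capture, and the lncRNA calls of Orm3 and Saa2 rested on 2 and 4 liver fragments. Lcn2 and Il1rn were not called, and were highest in the library labelled testis, at 15316 and 1464 against 708 and 112 in liver.

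Genes of both zones of the liver lobule were present. Of 13 genes of pericentral hepatocytes 7 were higher, such as Cyp1a2 and Gulo (68213 against 964, 676 and 492), and of 11 periportal genes 8 were higher, such as Hsd17b13 (56082 against 679, 449 and 302) and Pigr (113501 in liver, 7362 in kidney). Glul, glutamine synthetase, which only the innermost pericentral ring uses in liver, was at 1839 against 690, 729 and 653 and was not called. Of 8 genes known to be higher in male liver 7 were called, among them Mup20 (6742 against 70.6, 46.1 and 32.5), Hsd3b5 and Cyp2d9. Of 13 genes known to be higher in female liver 2 were called and 7 were under the level filter, and the 2 were Cyp17a1 and the gene model that Acot3 shares with Acot4. With a pseudocount of 10, or a mean of at least 10 in each capture, 1 was called, and Cyp17a1 had 2 liver fragments in the lncRNA capture. The Y-linked Kdm5d was read in all 4 nonbrain tissues, at 805 in liver against 1187, 815 and 1293. None of 8 genes of fetal liver was called, and 1 was without kidney: Afp was at 89.6 in liver and 114 in kidney, and H19 in the lncRNA capture was at 100 in liver and 13595 in heart.

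Other cells of the liver were seen through their markers. Of 13 Kupffer cell and macrophage genes 5 were higher. The list had a median difference of 1.08 in the splice junction capture and 1.19 in the lncRNA capture. Clec4f, a lectin of Kupffer cells, was at 10033 against 167, 71.5 and 60.8. Cd5l, Vsig4 and Timd4 had differences of 6.75, 5.62 and 3.81. Marco, a scavenger receptor, was at 782 against 11.2, 11.4 and 6.93, but its lncRNA value rested on 2 liver fragments (5.15 against 0 in the other tissues), under the floor of 3. With a pseudocount of 10, or a mean of at least 10 in each capture, 3 of the 13 were higher. The other 8 were called in neither capture, C1qa, C1qb and C1qc among them. Adgre1 was at 7434 in liver, 5364 in heart and 5432 in the library labelled testis, and Csf1r at 4813, 4369 and 3446. Of 16 endothelial genes 9 were higher, among them Stab2, a scavenger receptor of the sinusoids (22292 against 363, 743 and 229), Clec4g (4179 against 93.0, 47.5 and 28.8) and F8, coagulation factor VIII, whose source in liver is the endothelium (14774 in liver, 5247 in kidney). The general endothelial genes Pecam1 and Kdr were highest in heart, at 8920 and 21312 against 1704 and 9057.

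Markers of stellate cells and bile ducts were called in few cases. Among all tested protein-coding gene models 6.6% were higher. Whether counts of 1 or 2 in such short lists differ from that share was not tested. Of 14 stellate genes 2 were higher, Reln (3625 against 273, 142 and 200) and Bmp5, or 1 with a pseudocount of 10, and 4, among them Lrat, which stores vitamin A, were under the level filter. The list had a median difference of 0.41 in the splice junction capture and -0.28 in the lncRNA capture. None of 11 cholangiocyte genes was called, and kidney or the tissue labelled testis held more of each of the 11 than liver in the splice junction capture. Without kidney 2 were higher, without the tissue labelled testis 1 was higher, and without heart 2 were lower. Epcam was at 1198 in liver, 5794 in kidney and 22330 in the library labelled testis. Heart and kidney genes in liver were at the trace level given above: Myl2 was at 3294 in liver and 461835 in heart, and Umod at 1637 in liver and 76182 in kidney. Of 8 genes of exocrine pancreas 7 were under the level filter, with liver values of 0 to 0.870. The remaining gene, Cela1, was at 1084 in liver against 135, 3454 and 139 in the splice junction capture. It was not called, but without kidney 1 gene of this list was higher. Of 6 red blood cell genes 1, Alas2, was higher (16103 against 2995, 1229 and 933). Of 11 housekeeping genes 1, B2m, was higher, but none with scaling to fragments outside the spike-ins and none without kidney, and the list's median difference was 0.40 in the splice junction capture and 0.54 in the lncRNA capture.

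The 15 protein-coding genes with the largest difference in their weaker capture were Mup7, Cyp2c54, Mup10, Cfhr2, Ugt2b35, Mup3, Saa4, Cyp7a1, Sult2a8, Cyp2c70, Mup20, Akr1c6, Hamp, Alb and Kng1. Mup genes encode the urinary proteins that carry pheromones. Mup7 was at 1417 in liver against 14.4, 4.01 and 4.80 in the splice junction capture and at 1137 against 0, 1.69 and 0 in the lncRNA capture. The order within the 15 spans 7.12 to 7.53, which is less than the SD of the 3 comparison tissues for Mup7 (0.88) and for Hamp (0.83), so these genes were not ranked.

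Many liver genes stood next to each other. Of the 912 protein-coding gene models higher in liver, 326 (35.7%) had a neighbour among tested protein-coding gene models that was also higher. Of all tested protein-coding gene models 6.6% were higher, and a neighbour on either side counted. The share that position alone would give was not computed. There were 14 runs of at least 4. The longest, on chr4:61300023-62150863, held 8 Mup genes, and another on the same chromosome held 6. Runs of duplicated genes included Serpina1b, Serpina1d, Serpina1a, Serpina1e, Serpina9 and Serpina12 on chr12:103728156-104044443, Akr1c genes on chromosome 13 and Ces1c, Ces1d, Ces1f and Ces1g on chromosome 8. How fragments were split among near-identical copies, such as the Mup genes, is uncertain, so calls within such a run are not independent. The run of Ahsg, Fetub, Hrg, Kng2 and Kng1 on chr16:22891971-23082068 encodes cystatin-related plasma proteins. The run of Apoa1, Apoc3, Apoa4 and Apoa5 on chr9:46225667-46271919 is the known apolipoprotein cluster.

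Of the 423 protein-coding gene models lower in liver, a few are described. Lpl, the lipase that lets muscle and fat take up triglycerides, was at 2353 in liver against 143000 in heart, 22680 in kidney and 15106 in the library labelled testis in the splice junction capture, and at 1338 against 183379, 26783 and 14807 in the lncRNA capture. Ldhb, the lactate dehydrogenase subunit of oxidative tissue, was at 11.3 against 440, 293 and 40.5, a difference of -3.83 ± 1.82. Acss1, which activates acetate in mitochondria, was at 610 against 31606, 12895 and 2234. Liver lay below each comparison library for all 3, and heart was highest. The matrix genes Ogn and Mgp were at 104 and 211 in liver against 7125 and 8984 in heart, 590 and 2640 in kidney and 823 and 1103 in the library labelled testis. D7Ertd443e was at 0.870 in liver, which is 1 fragment, against 138, 20.1 and 39.5, and at 0 in the liver lncRNA capture, where it was at least 3.54-fold lower. The lower genes were not ranked, since their SDs in the splice junction capture exceed the gaps between neighbours in that order.

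Of 1157 gene models higher in liver, 1067 (92.2%) also exceeded all 4 brain libraries in both captures. Of 524 lower ones, 379 (72.3%) were also below all 4. Reln was among those that brain exceeded, at 12732 in cerebellum against 3625 in liver. Lpl was low in liver against its pool but not against brain, where it was at 49.8 to 599 in the splice junction capture, under 2353 in liver. Oxct1 and Ldhb were below the brain libraries too.

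Long noncoding RNAs were captured directly by the lncRNA design. Of 2412 annotated lncRNA gene models tested 122 (5.06%) were higher in liver and 70 (2.9%) lower, and of 8740 gene models without annotation 102 (1.17%) were higher, of which 19 were spliced. B430119L08Rik, at chr12:103895897-103898784 and overlapping Serpina1b on the opposite strand, was at 84899 in liver against 329, 260 and 246 in the lncRNA capture and at 265 against 4.81, 1.34 and 1.07 in the splice junction capture. Gm48633, at chr12:7906729-7950152, begins 27496 bases from the start of Apob on the opposite strand and was at 21210 against 76.3, 54.1 and 53.6. 9030622O22Rik, at chr2:147944553-148040203 and 2674 bases from Foxa2, was at 6632 against 14.3, 20.3 and 16.0. All 3 lay beside a gene that was itself higher in liver.

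That held for a share of them. For 48 of the 122 (39.3%) the nearest tested protein-coding gene model was also higher in liver, 7 of the 48 on the same strand, against 6.6% of protein-coding gene models in all. For unannotated gene models it was 59 of 102 (57.8%), 41 of the 59 on the same strand, and whether these are parts of the neighbour was not tested. Gm13613 overlaps the bile salt pump gene Abcb11 on the opposite strand, at chr2:69248307-69272491, and was at 23547 against 85.9, 57.5 and 61.5. Gm19619, on chr5:91239998-91283202, had the largest difference of the lncRNAs when the weaker capture is taken, 7.55, with 4874 in liver against 4.77, 11.8 and 31.9 in the lncRNA capture, and its nearest protein-coding neighbour Btc, 74059 bases away, had a difference of -0.02 in the splice junction capture. B630019A10Rik, at 51110 against 339, 289 and 100, lay 7310 bases from Adipoq, the fat hormone gene, which was not higher in liver (-1.44). It begins at chr16:23165338, and the run from Ahsg to Kng1 that was higher in liver ends at chr16:23082068. A spliced unannotated gene model inside Nrp1 on the opposite strand, at chr8:128455490-128488461, was at 4002 against 38.2, 30.4 and 5.70, while Nrp1, at 16225 in liver and 18107 in heart, was not called.

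The transcripts within a gene model were compared by their share of its value. Among 2597 gene models with several transcripts and a value of at least 50 in each nonbrain library, 5 of 20230 transcripts, in 3 gene models, changed their share by at least 50 percentage points in the same direction in both captures. With a value of at least 200 asked of each library none remained, those of Tymp and Ikbkg included. Tymp encodes thymidine phosphorylase. Its transcript Tymp-201 (chr15:89371639-89377039) took 81.1% of the gene model in liver, 0.0% in heart, 1.4% in kidney and 3.7% in the library labelled testis in the splice junction capture, and 74.7% against 0.0%, 0.0% and 0.3% in the lncRNA capture. A transcript with 8 exons, not in GENCODE, took 2.6% in liver and 38.2%, 75% and 64.2% elsewhere in the splice junction capture. Ikbkg-204, of the NF-kB regulator NEMO, took 79.4% in liver against 19.5%, 28.4% and 9.6% in the splice junction capture. The pair of Hdgfl2 transcripts did not hold across captures, since Hdgfl2-212 took 98.3% in kidney in the splice junction capture and 0.1% in the lncRNA capture.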

How the data were processed

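Each of 8 tissues gave 1 library per capture design, 16 in all, and the labels call each the first biological replicate. The authors aligned reads to GRCm38 with TopHat2, assembled transcripts in Cufflinks 2.2.1 on the GENCODE M4 models, joined the assemblies, and quantified transcripts with Cuffnorm 2.2.1. The deposited signal is Cuffnorm's normalized estimate of fragments per transcript, scaled by the authors with 1 factor per library. The splice junction design left out the regions most abundant in brain data. Transcript values were summed per gene model. Sums are whole multiples of a step per library (100% within 0.1 of a step, up to 20 steps), and division by the step gave fragments. Calculations were made in pandas 2.3.3 and NumPy 2.4.6 under Python 3.11.15, with intervals from SciPy 1.17.1.

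Gene models were named by exon overlap on the same strand with GENCODE M21 on GRCm38; 54 of those higher in liver hold several protein-coding genes. A pseudocount of 1, a mean of at least 10 over the 8 nonbrain libraries and a difference of 2 (log2) defined the calls. Gene models listed at 0 in 1 nonbrain library while the other 3 of its capture were at 1000 or more were left out, a rule made after seeing the data. The genes named are all members of the lists and, by the smaller difference of the captures, the 15 protein-coding gene models at each end, the 10 lncRNAs and the 10 spliced unannotated gene models at the upper end, the 10 transcripts with the largest change and gene models called in opposite directions. Genes in runs and as neighbours were named after their values were seen. The lists, the pairs and the comparison were chosen with earlier results of these data known. Gnmt and Cebpb had no gene model. Some list members are counted but not reported here by name. The calculation was tested on simulated data. Intervals and floors (3 fragments per library) cover counting error only. Alternatives were the pseudocount, filter, scaling, threshold, unit and leaving out each comparison tissue. Promoters are from RefSeq (GRCm38.p6).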

Additional observations from a re-analysis of the deposited data

Results flagged for a closer look

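In 2 gene models the captures called liver in opposite directions, and this was not tested. Bcat2, the mitochondrial transaminase of branched-chain amino acids, had a difference of 2.41 in the lncRNA capture, with 2983 in liver against 339 in heart, 1877 in kidney and 277 in the library labelled testis. In the splice junction capture its difference was -2.21, with 474 in liver against 3215, 1271 and 2578. A gene model that holds Bbs12 and Fgf2 had 2.11 in the lncRNA capture, on a liver value of 10.3, and -3.06 in the splice junction capture, with 11.3 in liver and 480 in heart.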

How the results depend on the processing

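No paired analysis was possible because each tissue and capture has 1 library, all labelled as the first replicate. For gene models higher and lower in both captures, reported as 1157 and 524, thresholds of 1 and 3 gave 2077 and 730 higher, and 1349 and 131 lower. A pseudocount of 10 gave 175 lower. Scaling to fragments outside the spike-ins gave 1085 lower (774 of its 775 higher gene models were among the 1157) and moved the median difference of all gene models to -0.49 and -0.31. Leaving out 1 comparison tissue gave 1139 to 1391 higher and 770 to 870 lower. For the lncRNA capture, reported as 2177 and 3340, thresholds of 1 and 3 gave 4347 and 1261 higher and 5583 and 1821 lower, a mean of at least 10 in each capture gave 1221 and 829, and a pseudocount of 10 gave 1950 lower. For the splice junction capture, reported as 1391 and 1277, thresholds of 1 and 3 gave 2653 and 890 higher and 2879 and 359 lower, a pseudocount of 0.1 gave 2322 higher, a pseudocount of 10 gave 657 lower, a mean of at least 10 in each capture gave 634 lower, and scaling to fragments outside the spike-ins gave 874 higher and 3163 lower. Over all lists, 265 members were higher and 8 lower. The lower ones were 5 with a pseudocount of 10, 15 with scaling to fragments outside the spike-ins and 10 to 13 without 1 tissue. A change of 30 percentage points gave 41 transcripts and a value of at least 200 gave 0. The causes were not tested. No named gene called in a capture changed sign under any alternative run on it. A call needed a difference of at least 2, so this says little about the size of a difference. In the lncRNA capture up to 146 of 465 named entries moved by more than their SD, with a pseudocount of 10. In the splice junction capture up to 186 did, with scaling to fragments outside the spike-ins. With 1 mouse per tissue, none of these differences has a measure of animal variation.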
